A study of Mus musculus with 6 samples.

Results

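The genes described here are 10 genes of the integrated stress response, Atf4, Ddit3, Trib3, Chac1, Asns, Ppp1r15a, Atf5, Xbp1, Eif2ak3 and Eif2ak4, out of 21911 protein-coding genes. They were listed by name, with earlier results of these data known. For each gene, peaks of acetylated lysine 27 on histone H3 (H3K27ac) were collected within 2.5 kb of any annotated transcription start site (the promoter) and over the gene body with 20 kb on either side (the locus). The 10 loci held 176 peaks of the 6 deposited peak lists, between 25 and 36 in each list.

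The integrated stress response begins when a kinase phosphorylates the translation factor eIF2. PERK (Eif2ak3) does so when unfolded proteins build up in the endoplasmic reticulum, and GCN2 (Eif2ak4) does so when amino acids run short. General translation then falls while translation of the transcription factor ATF4 rises. ATF4 acts with CHOP (Ddit3) and other factors on genes of amino acid supply (Asns), glutathione breakdown (Chac1) and feedback (Trib3), and Ppp1r15a encodes GADD34, which leads a phosphatase back to eIF2. ATF5 is a related factor under the same translational control, and XBP1 serves a parallel arm of the unfolded protein response. In the retina, signaling through PERK and CHOP has been studied in ganglion cells after injury of the optic nerve and under raised intraocular pressure. H3K27ac marks active promoters and enhancers, so it reports on the regulatory state of these genes and not on eIF2 or on protein.

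Bulk retina of wild-type C57BL/6 mice, 3 months old at the first pressure elevation, was profiled by ChIP-seq. In the 4xIOP group (3 retinas), pressure was raised in 1 eye to 30 mmHg for 1 h, 4 times in a biweekly rhythm. The control group (3 retinas) came from contralateral eyes left untreated, so that both groups share whatever reaches the other eye. Tissue was taken at day 2 following the final elevation, from single retinas. A protocol text shared by the samples also speaks of dasatinib or vehicle injections, but the labels of these samples name no drug. The labels of these samples do not give the sex of the mice, and nothing in them says that samples with the same number came from the same animal, so the p-values below measure the spread between these samples only.

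Each sample is 1 peak list, called for that sample alone. In 4 of the 6 lists the name inside the list is that of the other group (control 1, control 2, 4xIOP 1 and 4xIOP 2). The samples were kept in the groups of their labels, and every direction below holds for the groups as labelled. As only 4 of the names differ, the names would not simply reverse the directions, and none of the separations of control from 4xIOP named below would hold under them. The lists held 16195 to 36509 peaks, the most in control 3 and the fewest in 4xIOP 3, and the mean background recovered from each list was 87.4 to 173 fragments per 10000 bp. As bulk tissue was used, fewer cells that carry the mark and less mark per cell cannot be told apart. Of 11 photoreceptor markers, 7 had a promoter peak in all 6 lists, among them Nrl and Sag, and between 7 and 9 were marked in each list. Crx was marked in 5 lists. Of the cone markers, Gnat2 was marked in 1 control list, and Arr3 and Opn1sw in none. None of 7 microglial markers was marked in any list. Ganglion cell markers were marked in 0 or 1 of 8 per list. Rbpms was marked in 2 4xIOP lists and Thy1 in 1 control list, and the others, among them Pou4f1 and Pou4f2, had no peak throughout. Of 10 markers of other organs, Apoa2 was marked in all lists and Acta1 in 2. In all lists 2 of 10 markers of inner retinal neurons and 1 of 7 of Müller glia were marked, and none of 6 each for pigment epithelium and vessels, of which Mitf was marked in 5 lists, Kdr in 2 and Pmel in 1.

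The promoter sequences are shown first, for the genes on which the comparisons turn and for those with a match to a searched motif. They are from RefSeq (GRCm38.p6), written 5′ to 3′ in the direction of the gene, from base -250 before the RefSeq start up to -1, or up to -16 for Asns. All 10 genes matched an entry. Capitals mark a match to TGATGNAA, the core of the C/EBP-ATF response element through which ATF4 acts, or to TGACGTCA, the cyclic AMP response element.
Atf4 promoter, chr15:80254934-80255183, plus strand: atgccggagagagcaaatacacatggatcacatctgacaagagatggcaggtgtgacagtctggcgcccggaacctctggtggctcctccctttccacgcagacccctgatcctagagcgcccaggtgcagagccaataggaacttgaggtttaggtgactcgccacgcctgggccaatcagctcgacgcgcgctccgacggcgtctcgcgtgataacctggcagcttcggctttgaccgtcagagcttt
Trib3 promoter, chr2:152344061-152344310, minus strand: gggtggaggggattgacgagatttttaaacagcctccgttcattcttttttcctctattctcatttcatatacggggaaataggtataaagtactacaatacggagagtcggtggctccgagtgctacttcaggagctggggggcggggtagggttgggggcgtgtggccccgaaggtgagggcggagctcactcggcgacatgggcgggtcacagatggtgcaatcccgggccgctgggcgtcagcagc
Chac1 promoter, chr2:119350992-119351241, plus strand: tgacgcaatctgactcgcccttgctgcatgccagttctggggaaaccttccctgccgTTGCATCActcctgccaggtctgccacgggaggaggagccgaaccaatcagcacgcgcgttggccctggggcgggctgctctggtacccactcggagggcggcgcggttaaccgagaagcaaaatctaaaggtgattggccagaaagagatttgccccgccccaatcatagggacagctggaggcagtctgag
Asns promoter, chr6:7693225-7693459, minus strand: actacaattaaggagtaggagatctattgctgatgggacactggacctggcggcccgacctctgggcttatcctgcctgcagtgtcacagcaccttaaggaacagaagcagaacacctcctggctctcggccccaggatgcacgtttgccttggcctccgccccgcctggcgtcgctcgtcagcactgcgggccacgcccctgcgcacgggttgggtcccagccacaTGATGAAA
Ppp1r15a promoter, chr7:45526269-45526518, minus strand: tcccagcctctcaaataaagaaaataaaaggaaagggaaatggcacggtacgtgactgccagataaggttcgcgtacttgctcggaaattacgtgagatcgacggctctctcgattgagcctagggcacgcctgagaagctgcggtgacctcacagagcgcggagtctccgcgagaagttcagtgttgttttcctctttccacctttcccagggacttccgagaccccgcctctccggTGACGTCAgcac

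Both strands of the 250 bases before the start were searched. Chac1 held TTGCATCA, the opposite strand of TGATGNAA, with its first base at -193, and Asns held TGATGAAA at -23. TGATGNAA was found in 3.45% of 32851 promoters of this length. Ppp1r15a held TGACGTCA at -12, which was found in 1.55%. The motifs of the parallel arms of the unfolded protein response, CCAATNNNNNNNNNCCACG and TGACGTGG, were in 0.113% and 0.563% of promoters and in none of the 10. The remaining 7 genes had no match in this window. No site can match both TGACGTCA and TGACGTGG, though they share their first letters. The same windows of the 10 genes held 8 to 26 CpG dinucleotides, against a median of 6 over all promoters.

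Each promoter was given the fold enrichment of its highest peak. Fold is the fragment pile-up at the summit over the local background of the same list. It was expressed as a percentile among all peaks of that list, since depth differed between lists. A gene with no peak at any of its promoters was set to 0, which means below the threshold of the caller and not zero acetylation. At a background near the genome mean, the weakest called peak rested on 9 to 12 fragments. The median percentile of all marked protein-coding genes was 69.0 to 82.6 in the lists, the highest in control 3 and the lowest in 4xIOP 3.

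Of the 10 genes, 8 had a marked promoter in all 6 lists, beside 39.5% of all protein-coding genes. The exceptions were Atf5, marked in 5 lists, and Chac1, marked in 2. The count was 6 with only peaks of a -log10 q of at least 5 or with the same number of peaks from each list, and 9 without 4xIOP 2. In order of the mean percentile over the 6 lists, Eif2ak4 reached 90.6 ± 5.69, Atf4 89.0 ± 7.06, Xbp1 85.2 ± 4.33, Trib3 77.6 ± 9.50, Asns 77.6 ± 19.9, Ppp1r15a 56.9 ± 9.12, Ddit3 39.3 ± 5.34, Atf5 36.0 ± 24.2, Eif2ak3 30.3 ± 13.9 and Chac1 19.3 ± 29.9 (SD, n = 6). Neighbors in this order overlapped in range, except that Ppp1r15a lay above Ddit3 in all 6 lists and without overlap. Among the 8657 genes marked in all lists, the mean percentile of Eif2ak4 was above that of 83.9% of genes, and that of Eif2ak3 was above that of only 3.62%.

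**Figure D1:**
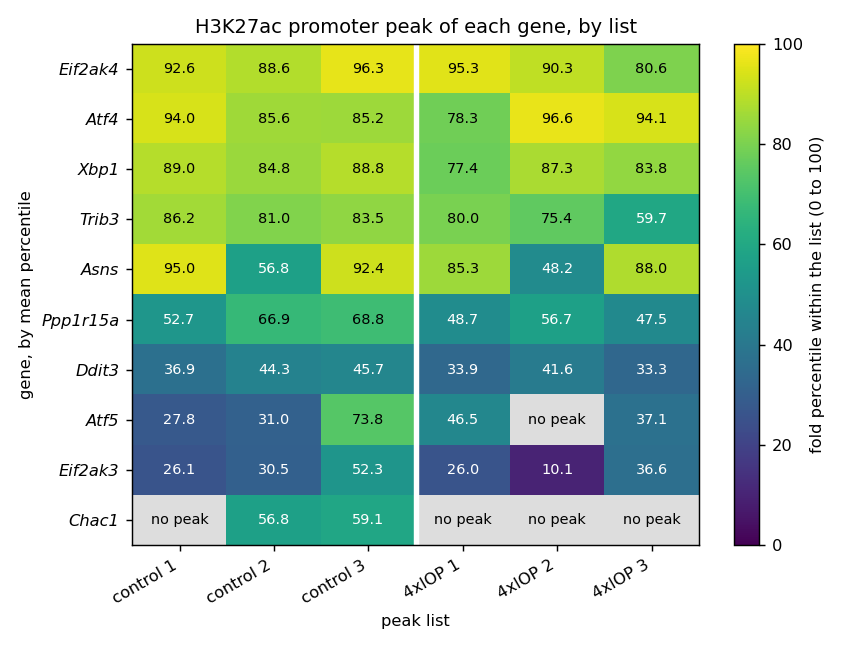
Fold percentile of the highest promoter peak of each gene (rows, by mean over the lists) in each of the 6 peak lists (columns, 3 control and 3 4xIOP). Color and printed number give the percentile from 0 to 100, and gray cells had no peak: Chac1 was called in 2 control lists, and Eif2ak4, Atf4 and Xbp1 stayed above 77 in all lists.

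The number of fragments at the same summit, divided by the genome mean of the list, gave another order. Atf4 came first with 44.8 times the genome mean, and Ddit3, 7th by percentile, came second with 24.2. Eif2ak4 fell to 7th place with 15.1 and Asns to 9th with 9.40. The difference follows from the local background, which was 1.24 to 2.23 times the genome mean at Eif2ak4 and 1.00 to 1.49 times at Asns, but 4.03 to 9.26 times at Atf4 and 3.92 to 10.1 times at Ddit3. The fold divides the fragments by this background, so that a given number of fragments yields a lower percentile over a higher background, and Atf4 combined many fragments with a high percentile. Whether the background came from an input library is not given in the sources used here. Nrl, a transcription factor of rods, shows how far this goes in retina, since its promoter summit carried 17.1 to 45.8 times the genome mean and yet reached a percentile of at most 11.8.

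**Figure D2:**
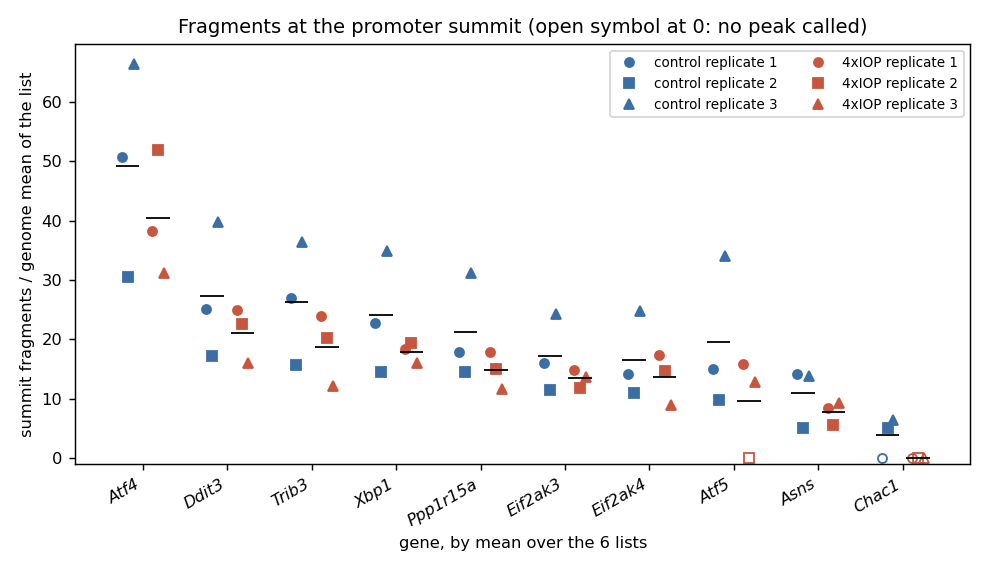
Fragments at the summit of the highest-fold promoter peak divided by the genome mean of the list (vertical axis), for each gene ordered by the mean of the 6 lists. Symbols are single lists (blue control, red 4xIOP, shape by replicate number), black bars are group means, and open symbols at 0 had no peak. Atf4 had the highest mean (44.8), and control 3 lay above every other list in 9 of the 10 genes.

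Of the eIF2 kinases, Eif2ak4 (GCN2; 2, 118388618 to 118475234, plus strand, GRCm38 with GENCODE vM21, as for all genes below) was among the highest promoters. Its percentile was 92.6, 88.6 and 96.3 in control 1, 2 and 3 and 95.3, 90.3 and 80.6 in 4xIOP 1, 2 and 3. The groups overlapped, and the difference of means was -3.71 percentile points (exact permutation p = 0.6, two-sided, n = 3 per group). The smallest p that this test can give with 3 lists against 3 is 0.1. The difference for Eif2ak4 was -7.00 without 4xIOP 1 and 0.344 without 4xIOP 3. It was 0.849 when the median percentile of marked genes was subtracted from each list. The summits lay 145 to 241 bp downstream of the most upstream annotated start in all lists, with 23 to 61 fragments. The other constant peaks of this locus, at -14.8 kb and +90.9 kb, were at promoters of Gpr176 and Srp14.

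Eif2ak3 (PERK; 6, 70844515 to 70905245, plus strand) was the lowest of the promoters marked in every list. Control lists gave 26.1, 30.5 and 52.3 and 4xIOP lists gave 26.0, 10.1 and 36.6. The groups overlapped, with a difference of -12.1 points (exact permutation p = 0.4) that was -4.09 without control 3, -5.06 without 4xIOP 2 and -0.492 with equal numbers of peaks. The mark was split into a peak upstream of the start, with summits at -739 to -535 bp, and another downstream at +252 to +361 bp. All 3 control lists and 4xIOP 1 had both, 4xIOP 2 had only the upstream peak and 4xIOP 3 only the downstream one. The locus also held a region at -20.1 kb, away from any annotated start and 32168 bp past the end of Rpia, that was called in all lists. There the percentile was 83.8, 65.7 and 84.5 in control and 67.6, 92.2 and 35.0 in 4xIOP, above that of the Eif2ak3 promoter itself in every list but 4xIOP 3.

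Atf4 (15, 80255184 to 80257541, plus strand), the central transcription factor of the response, had the strongest promoter by fragments. Its main summit carried 111, 103 and 164 fragments in control and 77, 110 and 80 in 4xIOP. These correspond to percentiles of 94.0, 85.6 and 85.2 against 78.3, 96.6 and 94.1, which overlapped. The difference was 1.42 points (exact permutation p = 0.8), the only positive one among the 10 genes, and turned negative without control 3, 4xIOP 2 or 4xIOP 3. It became -8.74 times the genome mean when fragments were compared (40.4 in 4xIOP against 49.2 in control, exact permutation p = 0.7, n = 3 per group). The summit was in the first part of the gene body at +498 to +536 bp, a spread of 38 bp over the 6 lists. A weaker peak upstream, with summits at -412 to -348 bp, was called in the 3 control lists (45, 55 and 87 fragments) and in 4xIOP 3 (32 fragments), and no peak was called there in 4xIOP 1 and 4xIOP 2. The start itself was covered by no peak in any list, and of the 250 bases printed above only 20 were covered, in control 3. Among all marked genes, 53.4% to 81.1% had a start outside any peak, depending on the list.

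Ddit3 (CHOP; 10, 127290774 to 127296288, plus strand) is annotated under 2 gene identifiers, which were treated as 1 gene. Its percentile was 36.9, 44.3 and 45.7 in control and 33.9, 41.6 and 33.3 in 4xIOP, a difference of -6.02 points with overlap (exact permutation p = 0.2). It turned to 5.00 points with equal numbers of peaks, and to 0.880 among the lists with longer fragments (control 1 against 4xIOP 1 and 4xIOP 2). The fold was modest but the fragments were many, 55, 58 and 98 in control and 50, 48 and 41 in 4xIOP. The summit with the highest fold lay upstream in every list, between -2034 and -602 bp. This stretch is shared with promoters of Mbd6, Gm20492 and Gm4189, so that the mark cannot be assigned to Ddit3 alone. A peak just downstream of the Ddit3 start, at +207 and +262 bp, was called only in control 3 (67 fragments) and control 1 (40 fragments). A region at +20.7 kb was called in all lists at the promoter of Mars, a tRNA synthetase gene of this response.

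Atf5 (7, 44812256 to 44816658, minus strand) was marked weakly and unevenly. The percentile was 27.8, 31.0 and 73.8 in control and 46.5, 0 and 37.1 in 4xIOP, with 4xIOP 2 holding no peak in the whole locus. The difference of -16.3 points was within the spread (exact permutation p = 0.6), and was -1.53 without control 3, -2.40 without 4xIOP 2 and -2.99 with equal numbers of peaks. At the peak of highest fold, control 3 had 84 fragments and the other 4 marked lists 32 or 33, and control 2 had a further peak at +1254 bp with 23 fragments. The promoters of Nup62 and Il4i1 overlap it. Xbp1 (11, 5520659 to 5525893, plus strand) was even across the lists, with 89.0, 84.8 and 88.8 in control and 77.4, 87.3 and 83.8 in 4xIOP. The groups overlapped, and the difference was -4.70 points (exact permutation p = 0.2). It was -2.01 without 4xIOP 1 and -0.693 with equal numbers of peaks. As at Atf4, the mark lay downstream of the start, with summits at +426 to +532 bp, and no list had a peak over the start.

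Among the targets, Trib3 (2, 152337422 to 152344032, minus strand), a pseudokinase that dampens the response, was the only gene whose groups did not overlap. Its percentile was 86.2, 81.0 and 83.5 in control and 80.0, 75.4 and 59.7 in 4xIOP. All 3 4xIOP lists lay below all 3 control lists, with a difference of -11.8 points (exact permutation p = 0.1, the smallest possible). Without 4xIOP 3 the difference was -5.83 points, and with equal numbers of peaks -5.89. Of the 12623 genes marked in at least 1 list, 10.1% were separated in this direction and 0.309% in the other, so that 1 of 10 genes is the background share. Without control 1, control 2, 4xIOP 2 or 4xIOP 3 the count of separated genes was 4, 3, 4 and 2, beside 19.1%, 23%, 17.4% and 16.8% of all genes. The separation was lost when the median percentile of marked genes was subtracted from each list (11.4, 7.84 and 0.829 against 6.35, 1.23 and -9.33), when the same number of peaks was taken from each list, and when fragments were compared (26.9, 15.7 and 36.5 against 23.9, 20.3 and 12.1 times the genome mean). On that last scale none of the 10 genes was separated, beside 1.73% of all genes in the lower direction and 0.0317% in the higher. In the fit over all shared regions the Trib3 promoter differed by -0.20 normal score units (SE 0.31, limma, unadjusted p = 0.536). The summit was at +112 to +234 bp in all lists. The promoter of the noncoding gene Gm14164 overlaps it.

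Chac1 (2, 119351229 to 119354381, plus strand), which cleaves glutathione, had a promoter peak in 2 control lists and in no 4xIOP list. Both peaks were small and in different places. That of control 2 had 17 fragments with its summit at -321 bp and a width of 195 bp, and that of control 3 had 16 fragments at +210 bp and a width of 727 bp. Control 1 had no peak, so that the groups overlapped and the exact permutation p was 0.4. Only in control 3 did a peak cover the TTGCATCA printed above. The locus nevertheless held a peak at -13.3 kb in every list. It had 28, 34 and 25 fragments in control and 19, 20 and 22 in 4xIOP, and percentiles of 92.4, 92.7 and 83.5 against 75.5, 89.6 and 71.8. The percentiles overlapped. Divided by the genome mean the fragments were 12.8, 10.1 and 10.1 in control and 9.45, 9.42 and 8.57 in 4xIOP, where every 4xIOP list lay below every control list (exact permutation p = 0.1, on the log2 scale). It was the only one of the 18 regions of these loci called in all lists to be separated on that scale, beside 1.06% of all such regions in the lower direction and 0.0665% in the higher. On that scale limma did not call it (difference -0.26 on log2, SE 0.46, adjusted p = 0.986). That fit gave all 18 regions the same SE, so the SE does not measure the spread of this region alone. The summit varied by only 51 bp over the lists. The element is intergenic, 1998 bp past the end of Dll4, a Notch ligand, and its target gene was not tested.

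Asns (6, 7675169 to 7693254, minus strand), asparagine synthetase, had high percentiles on few fragments. The percentile was 95.0, 56.8 and 92.4 in control and 85.3, 48.2 and 88.0 in 4xIOP, with 1 low list in each group (control 2 and 4xIOP 2). The difference of -7.56 points was within the spread (exact permutation p = 0.5), and was -19.9 without control 2, 5.24 without 4xIOP 2 and 13.4 among the lists with shorter fragments (control 2 and control 3 against 4xIOP 3). Fragments were 31, 17 and 34 against 17, 12 and 24. Divided by the genome mean they had the lowest mean of the promoters marked in all lists, though in 4xIOP 3 Eif2ak4 was lower (8.96 against 9.35). The SD of its percentile over the 6 lists was above that of 92.8% of genes. The TGATGAAA printed above lies downstream of the GENCODE start, which is 45 bp upstream of the RefSeq start. The only other peak of this locus was a weaker one at +511 bp in control 2, with 13 fragments.

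Ppp1r15a (GADD34; 7, 45522916 to 45526268, minus strand), the feedback subunit, had 39, 49 and 77 fragments in control and 36, 32 and 30 in 4xIOP at its promoter. Divided by the genome mean the groups overlapped (17.8, 14.5 and 31.2 against 17.9, 15.1 and 11.7, exact permutation p = 0.5). The percentile was 52.7, 66.9 and 68.8 against 48.7, 56.7 and 47.5, a difference of -11.9 points with overlap (exact permutation p = 0.2) that shrank to -0.897 with equal numbers of peaks and to -0.0079 among the lists with longer fragments. The summit lay at +164 to +528 bp, and only control 3 covered the 250 bases with the TGACGTCA. Plekha4 starts within this promoter in the opposite direction. A region at -11.9 kb, with its median summit in an exon of Plekha4, was called in all lists with 19, 20 and 40 fragments in control and 26, 22 and 21 in 4xIOP.

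The peaks away from any annotated start that were called in all 6 lists numbered 3 in the 10 loci. They are shown around their median summits (RefSeq genome, GRCm38.p6, capitals mark CpG), because they are the constant H3K27ac sites of these loci that lie away from promoters.
Chac1 distal element, chr2:119337860-119338059, plus strand: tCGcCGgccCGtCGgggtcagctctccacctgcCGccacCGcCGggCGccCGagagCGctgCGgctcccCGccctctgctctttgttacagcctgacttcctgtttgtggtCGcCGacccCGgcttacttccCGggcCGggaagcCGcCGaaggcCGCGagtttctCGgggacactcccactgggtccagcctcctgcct
Ppp1r15a distal element, chr7:45538105-45538304, plus strand: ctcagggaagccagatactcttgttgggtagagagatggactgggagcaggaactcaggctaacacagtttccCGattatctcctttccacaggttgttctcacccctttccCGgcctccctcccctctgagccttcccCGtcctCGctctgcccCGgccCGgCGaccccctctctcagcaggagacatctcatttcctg
Eif2ak3 distal element, chr6:70824300-70824499, plus strand: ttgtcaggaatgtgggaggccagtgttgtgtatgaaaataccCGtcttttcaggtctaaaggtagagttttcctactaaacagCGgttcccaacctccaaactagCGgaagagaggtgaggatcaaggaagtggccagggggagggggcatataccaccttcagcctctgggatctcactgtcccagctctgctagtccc

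The 200 bases of the Chac1 element held 22 CpG and 71% G and C, more CpG than 96.5% of 1805 such regions of the series, whose median was 3. The Ppp1r15a element held 7 CpG (above 76.1%) and the Eif2ak3 element 3 (above 40.1%). No start is annotated within 2.5 kb of the Chac1 element.

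**Figure D3:**
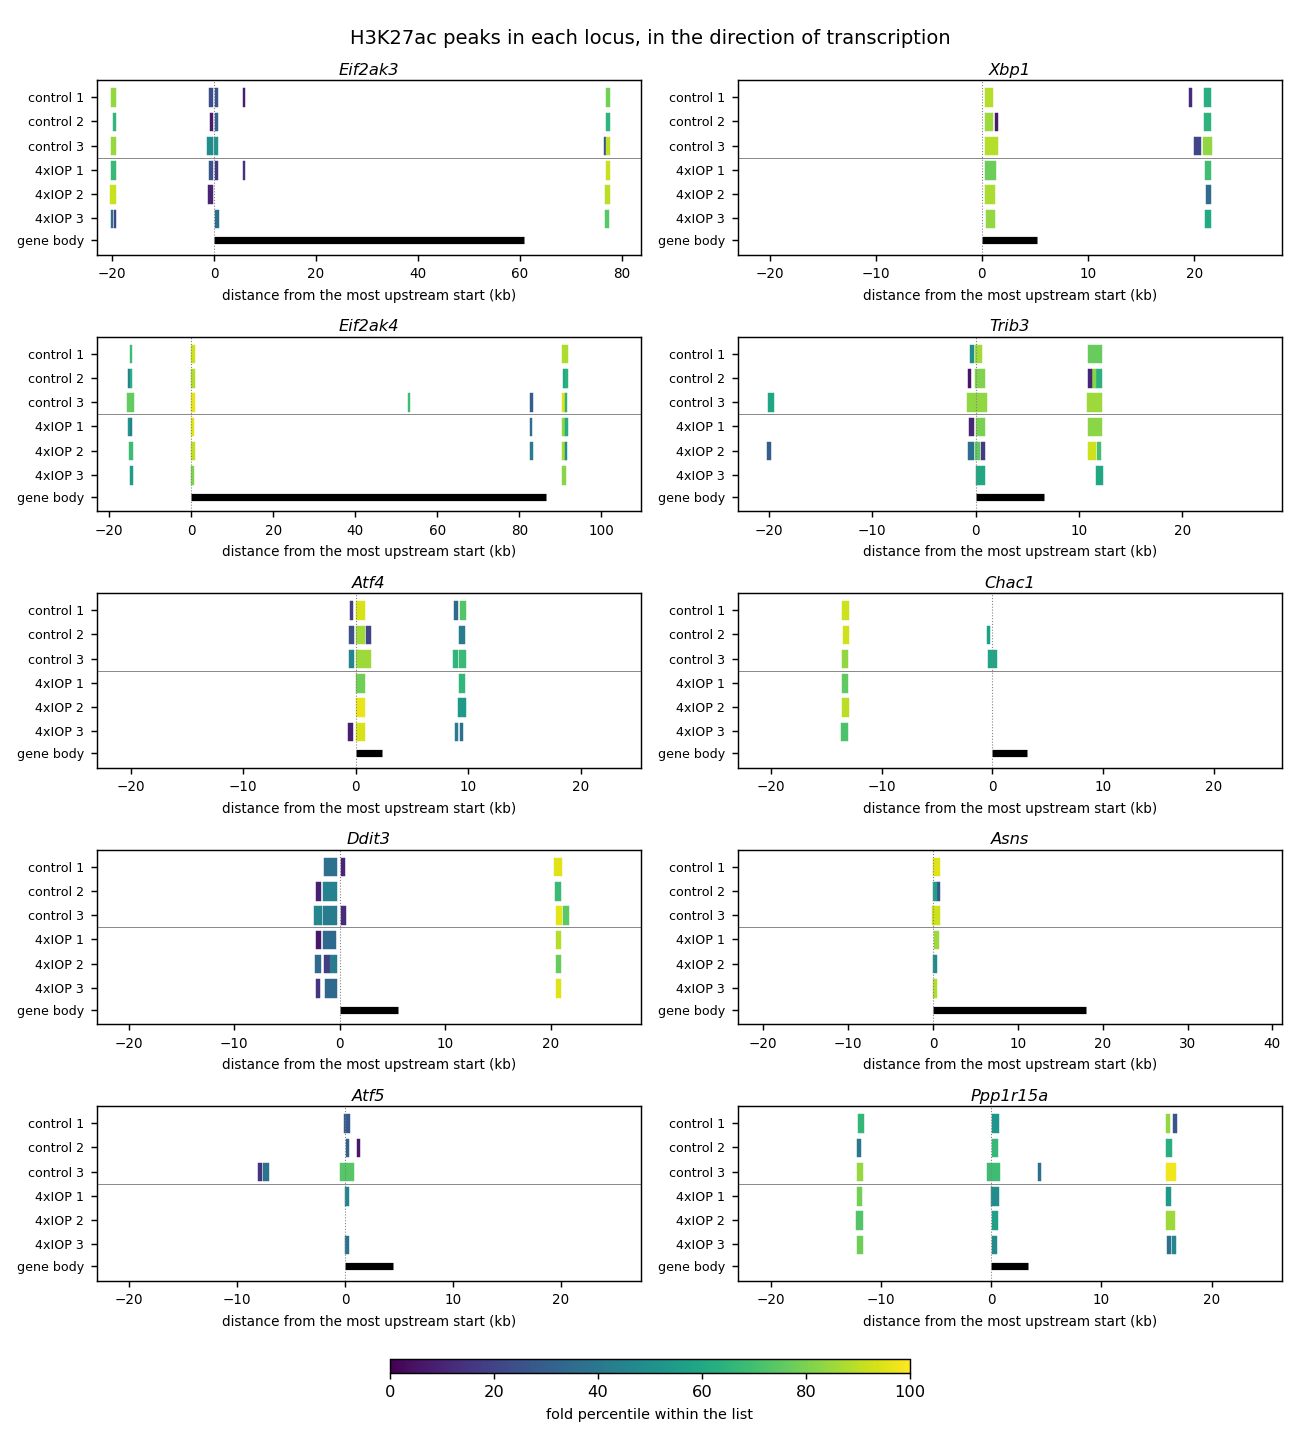
H3K27ac peaks of each locus in the 6 lists (rows), by distance from the most upstream annotated start of the gene in kb, in the direction of transcription. Boxes are peaks drawn to their length, color is the fold percentile within the list and the black bar is the gene body. Chac1 has a peak at -13.3 kb in all 6 lists but a promoter peak in only 2.

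The groups were then compared over whole loci. Control lists held 28, 33 and 36 peaks in the 10 loci and 4xIOP lists held 27, 27 and 25, means of 32.3 ± 4.04 and 26.3 ± 1.15 (SD, n = 3). The groups did not overlap. Over the whole genome the groups overlapped, with 21893, 19913 and 36509 peaks in control and 20338, 20804 and 16195 in 4xIOP. With the same number of peaks taken from every list, the counts were 24, 26 and 27 against 23, 22 and 25, which overlapped, and the difference shrank from -6 to -2.33 peaks. The counts were not set against those of other groups of loci. Of the peaks, 80 lay at a promoter of the gene itself, 64 at a promoter of another gene and 32 elsewhere. Merged over the lists they made 38 regions, of which 18 were called in all 6 lists, against 26.4% of the 39942 regions of the series. In these loci, no region was present in every control list while absent from every 4xIOP list, or the reverse, and of the 39942 regions of the series 418 and 6 were.

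The 18 regions called in all lists were tested with limma on normal scores of the fold, fitted over all 10529 such regions of the series. None of the 18 reached an adjusted p of 0.05, and none had an unadjusted p under 0.05. The share of all regions called was 0 in either direction, while 3.17% (334) had an unadjusted p under 0.05. Of the 18, 8 were higher and 10 lower in 4xIOP, from -0.65 to 0.61 with a median of -0.02, against a median of 0.01 over all regions, a balance near 0 that the ranking within each list brings with it. On fragments over the genome mean 2 of the 18 were higher and 16 lower, and of all regions 973 were higher and 9556 lower, with 0 called. On normal scores of the fold the largest rise was that of the Ppp1r15a element at -11.9 kb (difference 0.61, SE 0.32, limma, unadjusted p = 0.0795, adjusted p = 1.00). On fragments over the genome mean it was that of the Eif2ak3 region at +77.1 kb, at the promoter of Tex37 (0.44 on log2, SE 0.46 as for all 18). There the values were 8.21, 5.62 and 28.8 times the genome mean in control and 22.4, 21.2 and 7.01 in 4xIOP, which overlapped. The lists named control inside (control 3, 4xIOP 1 and 4xIOP 2) all lay above the others. Under those names this region would be separated and lower in 4xIOP, which was not tested. The percentiles of the Ppp1r15a element were 66.4, 40.1 and 84.2 in control and 78.9, 72.8 and 77.9 in 4xIOP, which overlapped. The largest fall on both scales was at +16.1 kb of Ppp1r15a, at the promoter of Nucb1 (difference -0.65, SE 0.41, limma, unadjusted p = 0.134). The Atf4 promoter differed by 0.41 (SE 0.37, limma, unadjusted p = 0.293).

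**Figure D4:**
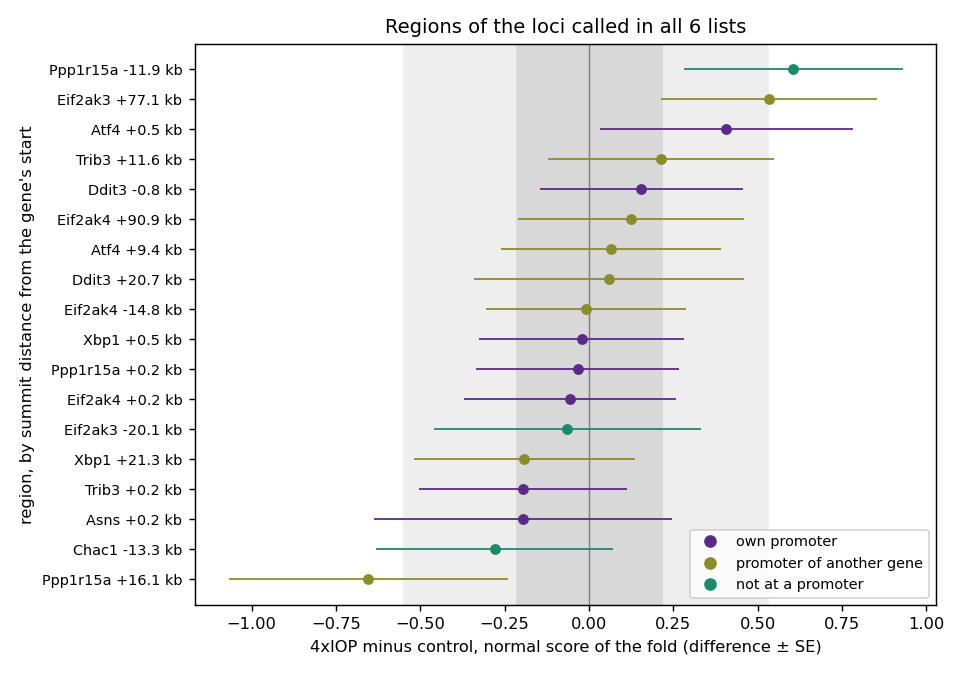
Difference between 4xIOP and control (horizontal axis, normal scores of the fold, points with SE bars from limma) for the 18 regions of the 10 loci called in all lists, named by gene and summit distance in kb. Gray bands hold the 25th to 75th and the 5th to 95th percentile of all 10529 regions, color gives the kind of region, and none of the 18 passed the test.

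At the promoters of all 10 genes together, 9 had a lower mean percentile in 4xIOP and 1 a higher one. This is near the share over all genes marked in at least 1 list, of which 80.2% were lower. The median difference was -9.70 points over the 10 genes and -7.54 over all 12623 genes. On this scale the 10 genes shared their tendency with promoters in general. The scale itself differed between lists, with a median of marked genes of 82.6 in control 3 and 69.0 in 4xIOP 3. With equal numbers of peaks, 3.94% of all genes were separated lower in 4xIOP and 3.07% higher, against 10.1% and 0.309% as reported. A change of the mark at promoters in general was not tested.

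The other genes of the pathway were described from lists. Of 13 genes for eIF2 subunits, its exchange factor eIF2B and other regulators of eIF2, 12 were marked in all lists. Of 32 further ATF4 targets, 17 were marked in all lists, 8 in some and 7 in none, the last including Phgdh of serine synthesis, the cystine transporter Slc7a11 and the hormone Fgf21. All 11 tRNA synthetases and 24 of 26 genes of the unfolded protein response were marked in all lists, beside 39.5% of all protein-coding genes. The median difference between the groups was -4.74, -7.41, 0.495 and -1.03 points in these lists, in the same order, against -7.54 over all genes. Of the 13, 25, 11 and 26 genes of these lists that were marked in at least 1 list, groups were separated for 4, which are named for that reason. Eif2b4, a subunit of eIF2B, was lower in 4xIOP (97.2, 96.2 and 97.6 against 92.1, 89.2 and 93.0), as was the amino acid transporter chain Slc3a2 (92.5, 83.7 and 87.4 against 68.3, 81.6 and 71.5, in control 2 from a peak at another start). Edem1, which serves degradation of misfolded proteins, was lower as well (82.0, 71.1 and 84.6 against 57.8, 68.3 and 62.6). The exact permutation p was 0.1 for each, in a direction taken by 10.1% of genes, and after subtraction of the median of each list only Edem1 of these 3 stayed separated. None of the 3 was separated on fragments over the genome mean (exact permutation p = 0.4, 0.3 and 0.6), nor was Slc3a2 with equal numbers of peaks.

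Atf3, a stress factor induced downstream of ATF4, was the single gene separated upward, a direction taken by 0.309% of genes. Its percentile was 43.7, 42.6 and 41.4 in control and 49.7, 87.4 and 62.0 in 4xIOP, a difference of 23.8 points (exact permutation p = 0.1). The peak lies at an inner start, 35.0 kb downstream of the most upstream one. It carried 37, 36 and 48 fragments in control and 37, 52 and 43 in 4xIOP, which overlapped, over local backgrounds of 8.82, 9.15 and 12.3 against 8.26, 7.89 and 8.23. Separation was kept with a -log10 q of at least 5, with equal numbers of peaks and after subtraction of the median of the list (where 3.07% and 4.17% of genes were separated upward), and was lost when fragments were divided by the genome mean (exact permutation p = 0.5). In the fit over all regions the difference was 0.97 normal score units (SE 0.35, limma, unadjusted p = 0.0141, adjusted p = 1.00), so that it was not called.

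**Figure D5:**
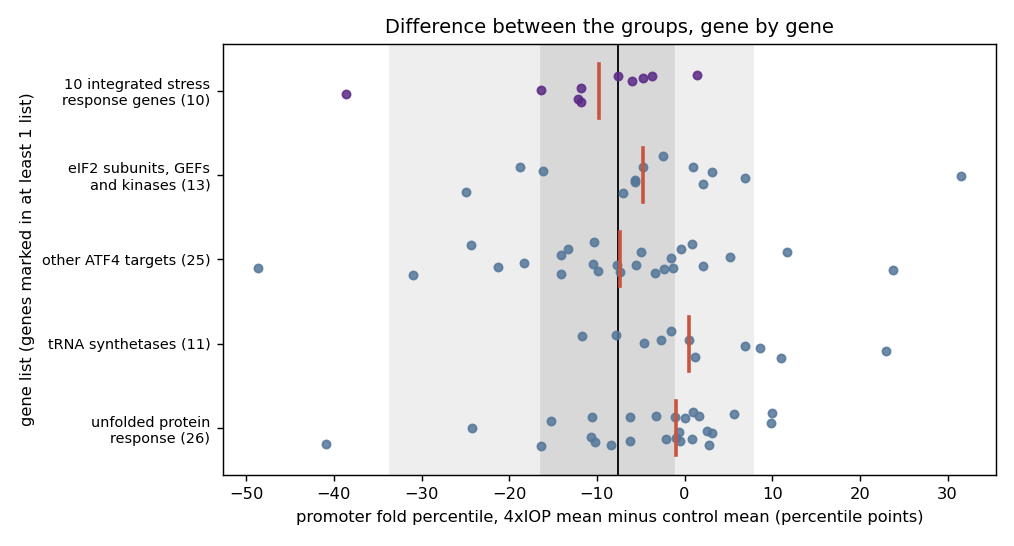
Difference in promoter fold percentile between the group means (4xIOP minus control, percentile points) for each gene marked in at least 1 list, by gene list (rows, number of genes in brackets). Red bars are list medians, gray bands hold the 25th to 75th and the 5th to 95th percentile of all 12623 genes and the black line their median (-7.54); the 10 integrated stress response genes have a median of -9.70.

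The genes whose promoter percentiles varied most like that of Atf4 over the 6 lists were Fzd4 (Pearson r = 0.98), Zfat (r = 0.96) and Wdr78 (r = 0.96), out of 8656 other genes marked in all lists. These are the highest of 8656 values over 6 lists that also differ in depth, and are given as a description.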

How the data were processed

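H3K27ac ChIP-seq of mouse retina (antibody ab4729, Abcam) was analysed from 6 narrowPeak lists, 3 control and 3 4xIOP, each called by the authors on a single sample. The submitters' processing notes name STAR 2.7.8a, MACS2, HOMER, bedtools 2.29.2 and edgeR, without their roles, and the build mm10. The settings of the peak caller and any input library are not given in the sources used here. Each deposited peak carries a fold enrichment of the summit over the local background, a −log10 p and a −log10 q, as the authors' caller wrote them. The deposited score column and the summit offset were written by the caller too, and the score was not used in any comparison.

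Whole fragments and the local background at each summit were recovered from the deposited fold and −log10 p under the Poisson model (within 0.001 for 100% of peaks), and the lowest background was taken as the genome mean. The fold was ranked within each list to a percentile. Genes and starts were those of GENCODE vM21 (GRCm38). A peak was assigned to a promoter (2.5 kb on either side of any start) or locus (20 kb on either side of the gene) by an overlap of at least 1 bp. Peaks overlapping between lists were merged to regions, and those called in all 6 lists were fitted with limma 3.58.1 (R 4.3.3) on normal scores of the fold, with Benjamini-Hochberg adjustment over all of them and a threshold of 0.05. Single genes were compared by a two-sided exact permutation test over the 20 splits of the lists. Scripts used Python 3.11.15, and the fit and the recovery were tested on simulated data. Fragment numbers cover counting error only.

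The 10 genes and all lists were chosen with earlier results of these data known. Named beside them were, from the related lists, up to 3 genes per direction with the largest difference among those with separated groups, and the 3 genes most like Atf4. Of 12 tRNA synthetases 11 matched the annotation. Alternatives were a −log10 q of at least 5, equal numbers of peaks, fragments over the genome mean, a promoter of 1 kb, a stricter overlap, the gene body alone, fragment-length class, a replicate block and leaving out each list. Subtraction of the median of each list was added after seeing the data.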

Additional observations from a re-analysis of the deposited data

How the results depend on the processing

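The count of limma calls was 0 in either direction under every alternative run, with 8 to 702 regions at an unadjusted p under 0.05 over all regions, and a stricter overlap was not run for it because peaks lie wholly inside merged regions. Among the 18 regions of the 10 loci, 1 had an unadjusted limma p under 0.05 without control 2, control 3, 4xIOP 2 or 4xIOP 3, and none did in the other fits. The 1 gene with separated groups lower in 4xIOP (Trib3) became 0 with equal numbers of peaks (3.94% of all genes), 0 with fragments over the genome mean (1.73%) and 0 after subtraction of the median of each list (5.04%), and leaving out 1 list gave 1 to 4 such genes (12.7% to 23%). Higher in 4xIOP the count was 0, or 0 to 1 leaving out 1 list, the 1 being without 4xIOP 1, beside 1.07% of all genes. The difference in peaks of the loci went from -6 to -2.33 with equal numbers of peaks and to -2.67 in the gene body alone. The sign of the promoter difference turned for 4 of the 10 genes. It was -8.74 (times the genome mean) with fragments and -6.54 within the long-fragment lists (control 1, 4xIOP 1 and 4xIOP 2, whose shortest peak exceeded 200 bp) for Atf4 (-2.06 to 7.09 leaving out 1 list). It was 5.00 with equal numbers of peaks and 0.880 within the long-fragment lists for Ddit3. It was 13.4 within the short-fragment lists for Asns (-19.9 to 5.24 leaving out 1 list, positive without 4xIOP 2). It was 0.250 within the long-fragment lists and 0.849 after subtraction of the median for Eif2ak4 (-7.00 to 0.344 leaving out 1 list, positive without 4xIOP 3). The cause was not tested. The negative sign of the other 6 genes held where a difference was left, but with equal numbers of peaks it shrank to -0.492 for Eif2ak3, -0.693 for Xbp1 and -0.897 for Ppp1r15a.

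A replicate block in the limma fit gave 0 calls (289 at an unadjusted p under 0.05). Deviations of lists with the same number correlated at -0.0208, -0.0571 and -0.146, and those of lists with different numbers at -0.159 to 0.181. The second range holds the first values, so the correlations cannot show whether the numbers pair the lists. The numbers were not taken as pairs. Whether samples with the same number share an animal is not stated in the labels.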
